A study of Homo sapiens with 6 samples.

Results

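The genes described here are 29 genes of cholesterol and fatty acid synthesis, namely the SREBP transcription factors, proteins that control them or move sterols, and enzymes whose genes they act on. They were chosen by name, as the entries of the expression table whose symbol was exactly one of the 29, and all 29 were among its 31628 genes. The level used to enter the test, a mean of at least 1 over the 6 libraries in the deposited unit, was reached by 22 of them. MVK, CYP51A1, NSDHL, HSD17B7, FADS2, ACACA and ELOVL6 were below it and are described from reads recovered from the same values. The unit divides by the length of the whole gene with its introns, so the filter removes long genes as well as low ones. ACACA had a mean of 2634 reads per library and NSDHL 582, more than the 390 of INSIG1, which was tested.

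Messenger RNA was sequenced from HCT116 cells, an established human colon cancer line, in which the ENL gene (MLLT1) carries an auxin-inducible degron and the plant F-box protein AtAFB2 is stably expressed. ENL reads acetylated histones, and auxin lets AtAFB2 bring a ubiquitin ligase to the degron. Control cells received no auxin, IAA cells received the auxin IAA for 3 h at a dose written as 500 um, and washout cells received the same IAA, were washed with PBS and grew for a further 48 h in normal medium. Each group held 2 libraries. All 3 groups carried the tagged ENL and AtAFB2, which were introduced under puromycin and blasticidin selection of clones. The sources used here do not say how many clones were used. No library came from cells without the degron treated with IAA, so loss of ENL and exposure to IAA cannot be told apart. The washout cells also had a wash and longer culture that the control cells are not said to have had, and these cannot be told apart from the return of ENL. Nothing says that the replicates were separate cultures, so the p-values measure only the spread between these libraries.

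Cells make cholesterol from acetyl-CoA through mevalonate and a chain of isoprenoids that ends in squalene, which is closed into the first sterol and then trimmed and reduced. The SREBP factors, made as membrane proteins of the endoplasmic reticulum, are carried to the Golgi and cut when sterols are scarce, and the freed part then switches on most genes of this pathway and of fatty acid synthesis. INSIG proteins hold the SREBPs back when sterols are plentiful, and INSIG1 is itself among the genes that SREBPs switch on.

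Promoter sequences are shown for the 4 genes that passed the test described further on, and for INSIG1, the counterpart of INSIG2, to set side by side the letters that SREBPs and their partner NF-Y are known to bind. The windows are the 250 bases before the RefSeq start (GRCh38.p14), written 5′ to 3′ on the strand of the gene. Capitals mark matches to a sterol regulatory element (CACNCCAC), an E-box (CACGTG) or an NF-Y box (CCAAT), on either strand. INSIG1 lies at chr7:155297628-155297877 on the plus strand, INSIG2 at chr2:118088221-118088470 on the plus strand, MVD at chr16:88663092-88663341 on the minus strand, IDI1 at chr10:1049120-1049369 on the minus strand and SC5D at chr11:121292521-121292770 on the plus strand.
INSIG1: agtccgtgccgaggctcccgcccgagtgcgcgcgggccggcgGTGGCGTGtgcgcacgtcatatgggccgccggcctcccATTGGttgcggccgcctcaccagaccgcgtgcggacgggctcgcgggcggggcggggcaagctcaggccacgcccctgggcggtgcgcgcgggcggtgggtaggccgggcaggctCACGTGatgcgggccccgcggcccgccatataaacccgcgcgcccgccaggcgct
INSIG2: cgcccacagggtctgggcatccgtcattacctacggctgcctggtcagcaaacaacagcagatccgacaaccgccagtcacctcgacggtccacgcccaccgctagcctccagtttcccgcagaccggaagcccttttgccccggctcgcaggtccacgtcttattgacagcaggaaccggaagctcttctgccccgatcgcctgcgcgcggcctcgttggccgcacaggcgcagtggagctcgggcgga
MVD: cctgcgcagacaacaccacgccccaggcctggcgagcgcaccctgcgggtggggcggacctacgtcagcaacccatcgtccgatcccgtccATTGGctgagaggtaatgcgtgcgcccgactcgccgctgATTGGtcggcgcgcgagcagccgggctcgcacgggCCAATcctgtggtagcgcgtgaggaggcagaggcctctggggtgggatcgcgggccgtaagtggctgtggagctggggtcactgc
IDI1: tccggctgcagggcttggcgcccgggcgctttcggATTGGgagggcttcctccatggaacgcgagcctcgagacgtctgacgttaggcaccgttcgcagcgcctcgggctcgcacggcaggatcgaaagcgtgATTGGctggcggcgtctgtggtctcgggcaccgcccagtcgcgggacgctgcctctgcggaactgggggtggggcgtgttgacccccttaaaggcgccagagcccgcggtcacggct
SC5D: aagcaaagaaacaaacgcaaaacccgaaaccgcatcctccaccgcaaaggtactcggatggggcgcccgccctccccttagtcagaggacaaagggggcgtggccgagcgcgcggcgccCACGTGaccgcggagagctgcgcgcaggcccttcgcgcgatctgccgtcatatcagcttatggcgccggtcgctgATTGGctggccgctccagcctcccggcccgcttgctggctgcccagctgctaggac
The INSIG1 window held all 3 kinds of match, with the sterol regulatory element 208 bases, the NF-Y box 170 bases and the E-box 55 bases before the start. The INSIG2 window held none of them. MVD had 3 NF-Y boxes, IDI1 had 2, and SC5D had an E-box and an NF-Y box.

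Of the 29 genes, 25 had a window in the RefSeq table. ACAT2, FDFT1, SQLE and FASN are named only. An NF-Y box was in 16 of the 25 windows (64.0%), against 34.2% of the 17392 genes with a window, and a GC box (GGGCGG, either strand), the letters bound by SP1, was in 22 (88.0%), against 52.6%. The sterol regulatory element letters were in 3 windows (12.0%, SREBF2, INSIG1 and SCD), against 4.86%, and the E-box in 2 (8.0%), against 7.51%. The 17392 genes were not limited to those with reads in these cells, while all of the 25 had reads. The shares are thus not set against expressed genes alone, and what this does to them was not tested. The motifs were searched separately, and none of the printed matches overlapped another. These letters were settled after the windows had been seen, the matches are descriptions and not shown binding sites, and no test was made of them.

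**Figure D1:**
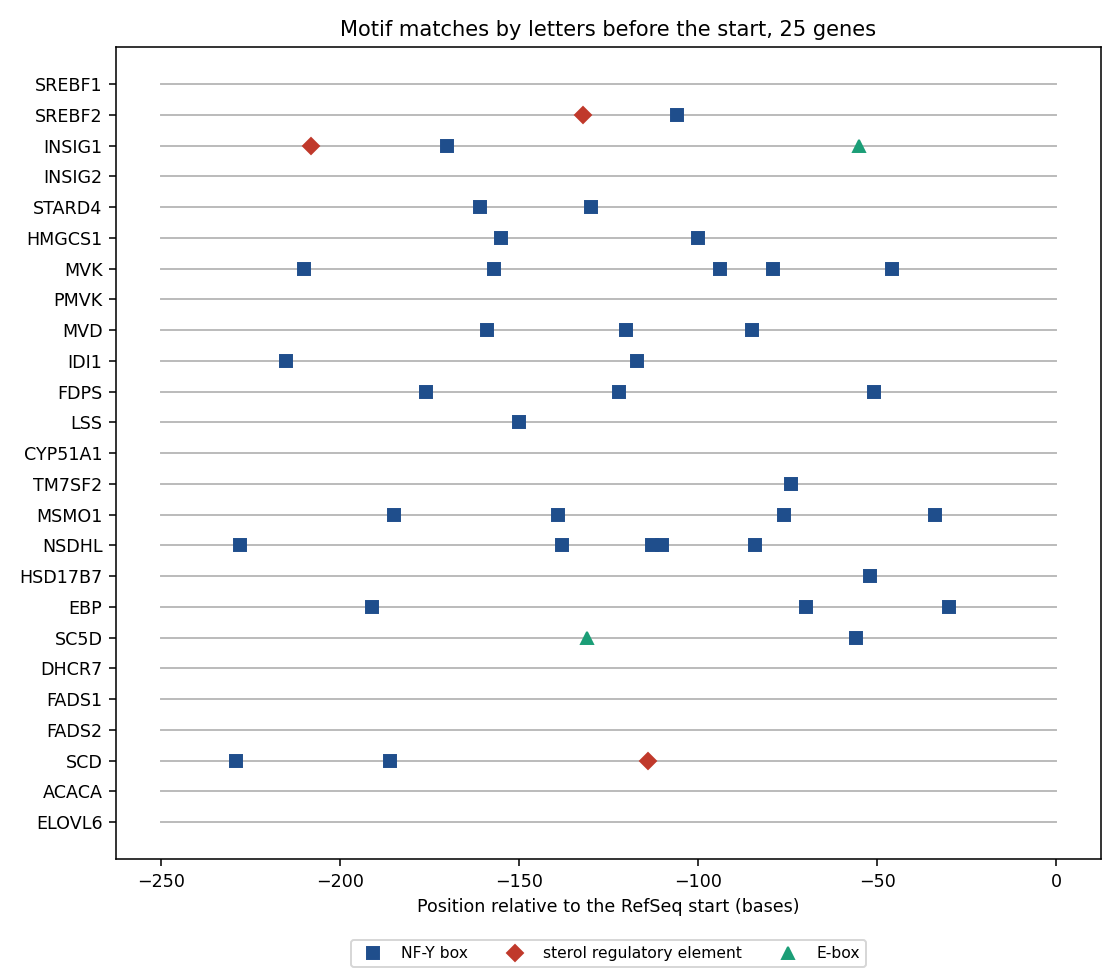
Each line is the window of 1 gene, with the position before the RefSeq start in bases on the x axis and symbols for matches on either strand. NF-Y boxes are present in 16 of the 25 windows, sterol regulatory element letters in 3 and E-boxes in 2.

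The deposited unit is FPKM, which divides the fragments of a gene by its length in kilobases and by the size of the library. Tested on the values, that length proved to be the whole gene with its introns, so changes in FPKM were read between libraries within a gene. Only the filter and the marker sums below set it across genes, where long genes count for less. From the steps of the values, library totals of 16442840 to 16770850 reads and whole reads per gene were recovered (99.43% of the 21707 genes above 0, to within 0.02 reads). The 8317 genes whose mean FPKM was 1 or more were tested with limma on log2(FPKM + 1) in 1 fit over all 6 libraries, and a gene is said to have risen or fallen where the Benjamini-Hochberg adjusted p over all tested genes, two-sided, was under 0.05. Log2 changes on this scale understate those of genes with a low FPKM. The same comparison was made with limma's voom fit on the recovered reads (14752 genes with a mean of at least 10 reads), which took in all 29 genes. Errors are SD over n = 2 beside FPKM and SE beside log2 changes. The colon epithelium markers summed to 206 to 214 FPKM in control, 161 to 169 with IAA and 198 to 211 after washout, most of it KRT18 (mean 156 FPKM). Of the 6 of 7 tested by limma, KRT8 and KRT18 fell with IAA and rose after washout and the rest were not called. On the recovered reads EPCAM also fell with IAA (voom adjusted p = 0.030), while CDX2 and VIL1 rose to 1.34 and 1.24 times control (voom adjusted p = 0.012 and 0.018) and fell after washout (0.045 and 0.039), and CDH1 had 1.01 times control. KRT20, below the FPKM filter, rose after washout on the reads (voom adjusted p = 0.013). The list thus did not move in 1 direction, and its part in the results was not tested. Markers of fibroblasts (6 genes), endothelium (3 of 4 in the table), blood (6), and fat and liver cells (5) each summed to under 1 FPKM in every library, with CD3E, TTR and ADIPOQ at 0. In this unit such a sum does not show absence, as COL1A1, a fibroblast marker, had 158 to 230 reads per library. In bulk RNA, fewer cells of a kind and less RNA per cell cannot be told apart. MLLT1, whose protein and not RNA is the target of IAA, had 0.412 and 0.427 FPKM in control, 0.404 and 0.358 with IAA, then 0.413 and 0.384 after washout.

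With IAA, 2 of the 22 tested genes rose (IDI1 and MVD) and 1 fell (INSIG2). That is 13.6% of the 22, while 13.1% of all tested genes were called, 6.64% higher and 6.49% lower. The split of all calls depended on scaling, with 552 higher and 540 lower as deposited and 397 and 647 after rescaling to TPM, while the set had 2 and 1 under both. The 29 genes as a group were thus called about as often as genes in general, and the median log2 change of the 22 was 0.02, beside 0.01 over all tested genes. On the recovered reads 6 of 29 rose (INSIG1, MVD, IDI1, TM7SF2, SC5D and FADS2) and 2 fell (INSIG2 and FASN), or 27.6% beside 23.8% of all genes. The 2 control and 2 IAA libraries did not overlap for 19 of the 22 genes (86.4%, 10 higher and 9 lower). Over all 29 the share was 79.3%, beside 61.9% of all tested genes.

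After washout, set against IAA, INSIG2 rose and IDI1, MVD and SC5D fell. These 4 of 22 (18.2%) stand beside 14.4% of all tested genes, with 7.73% called higher and 6.65% called lower (643 and 553 genes, or 804 and 400 after rescaling to TPM, with 1 and 3 of the set under both). On the recovered reads 3 rose (INSIG2, FDPS and FASN) and 6 fell (INSIG1, HMGCS1, MVD, IDI1, TM7SF2 and SC5D), or 31.0% of 29 beside 24.9% of all genes. The median log2 change of the 22 was -0.03, beside 0.00 over all tested genes. The libraries of the 2 groups did not overlap for 18 of 22 genes (81.8%) and for 69.0% of all 29, beside 62.1%. Both comparisons use the same IAA libraries, so opposite signs in them are not independent of each other.

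Against control, no gene of the 22 was called after washout, as was true of all 8317 tested genes (0.0% called, 750 with an unadjusted p under 0.05, none of them in the set). The recovered reads also called none of the 29, beside 0.637% of all genes called. Of the 29, 3 had an unadjusted voom p under 0.05 (SREBF2, IDI1 and FDPS), beside 1628 of all 14752 genes. Washout means lay between 86.7% (STARD4) and 114% (FDPS) of the control mean over the 22 tested genes, and CYP51A1, below the filter, had 120%. Over the 22, the 95% limma intervals of the difference from control in log2(FPKM + 1) reached from -0.32 (STARD4) to 0.32 (FDPS). Differences up to that size lay within them. On the recovered reads, the 95% intervals over all 29 reached further, from -0.46 (HSD17B7 and STARD4) to 0.80 (CYP51A1). The groups did not overlap for 11 of 22 genes (50.0%) and for 51.7% of all 29, beside 42.2% of all tested genes.

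**Figure D2:**
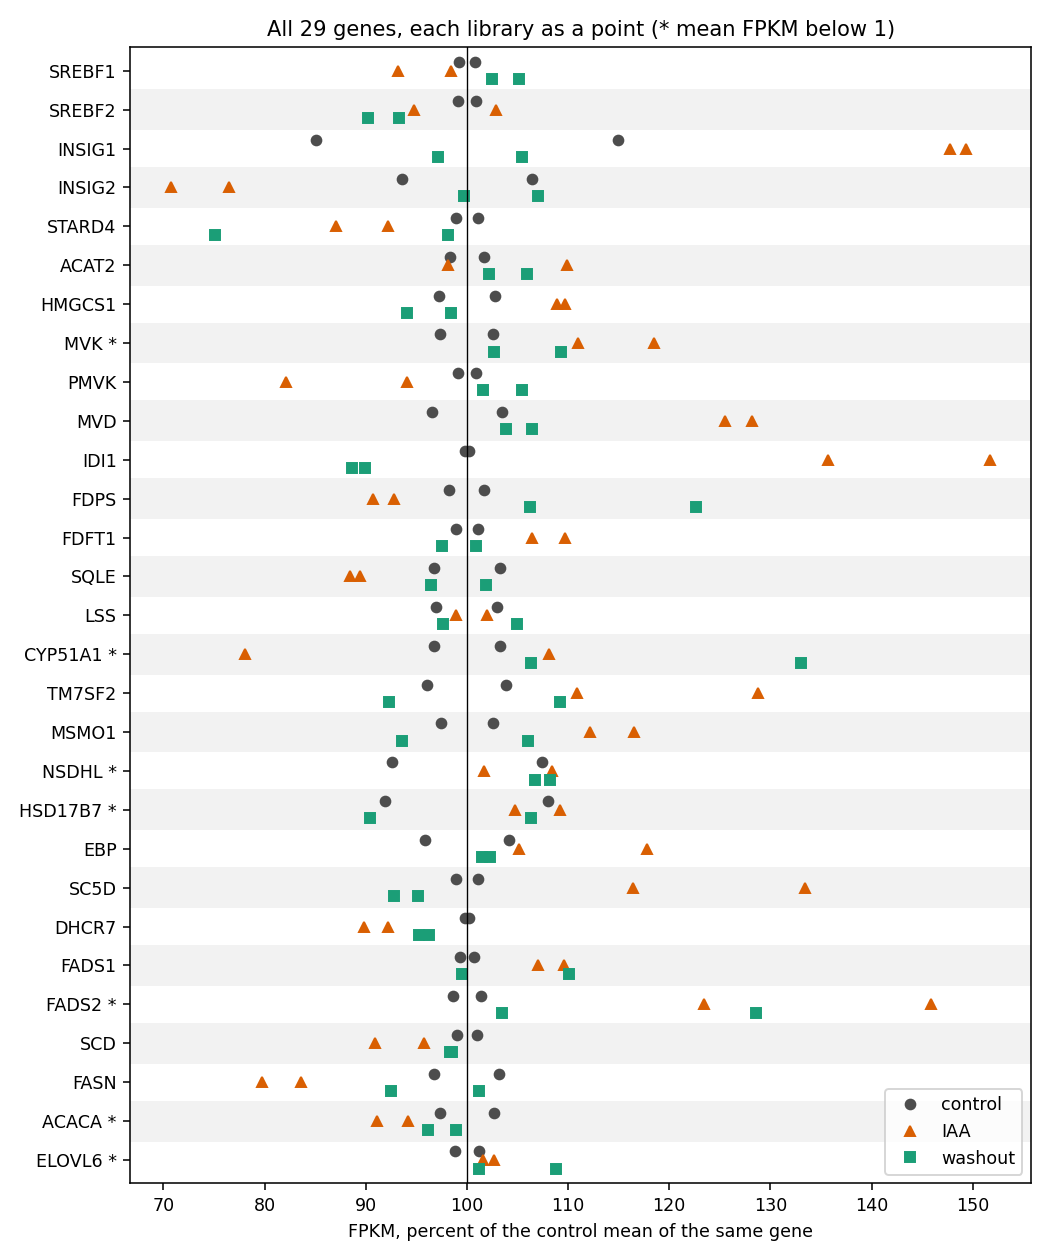
Each point is the FPKM of 1 gene in 1 library as a percent of that gene's control mean (x axis), with circles for control, triangles for IAA and squares for washout, and an asterisk for genes with a mean FPKM below 1. Both IAA triangles lie to the right of all other points for 10 genes, among them INSIG1, IDI1, MVD and SC5D, and to the left for 9, among them INSIG2 and FASN. This pattern was not counted over all tested genes. Of those, 61.9% did not overlap between IAA and control, and 62.1% between washout and IAA.

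Among the regulators, the 2 INSIG genes moved apart. INSIG1, an anchor of the SREBPs and itself one of their targets, measured 1.37 and 1.85 FPKM in control, 2.38 and 2.41 with IAA, then 1.70 and 1.57 after washout. Both IAA libraries were above the other 4, and the control libraries were far apart. The log2 change with IAA was 0.38 ± 0.09 with a limma adjusted p of 0.064, which missed the threshold, and on the recovered reads INSIG1 rose by 0.58 ± 0.12 (voom adjusted p = 0.00027). From IAA to washout the log2 change was -0.37 ± 0.09 (limma adjusted p = 0.067), and on the reads it fell by 0.55 ± 0.11 (voom adjusted p = 0.00047). The washout mean was 101% of control.

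INSIG2, the other anchor, which is not a usual SREBP target, ran the other way. It measured 1.57 and 1.79 FPKM in control, 1.19 and 1.29 with IAA, then 1.80 and 1.68 after washout. The IAA libraries were the lowest, and control and washout overlapped. INSIG2 fell by 0.26 ± 0.06 on the log2 scale with IAA (limma adjusted p = 0.049) and rose by 0.29 ± 0.06 after washout (limma adjusted p = 0.037). Both limma calls were lost when any 1 of the 6 libraries was left out (adjusted p of 0.085 to 0.18 with IAA and 0.057 to 0.15 after washout), while on the recovered reads they were kept in all 6 such fits.

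Since both genes were counted in the same libraries, their ratio does not depend on library size. It was chosen after the values were seen and was not tested. There were 0.482 and 0.572 reads of INSIG1 per read of INSIG2 in control, 1.11 and 1.03 with IAA, and after washout 0.522 and 0.517. The ratio was above 1 in both IAA libraries and below 0.6 in the other 4. These ratios rest on 284 to 503 reads of INSIG1 and 441 to 678 reads of INSIG2 per library.

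**Figure D3:**
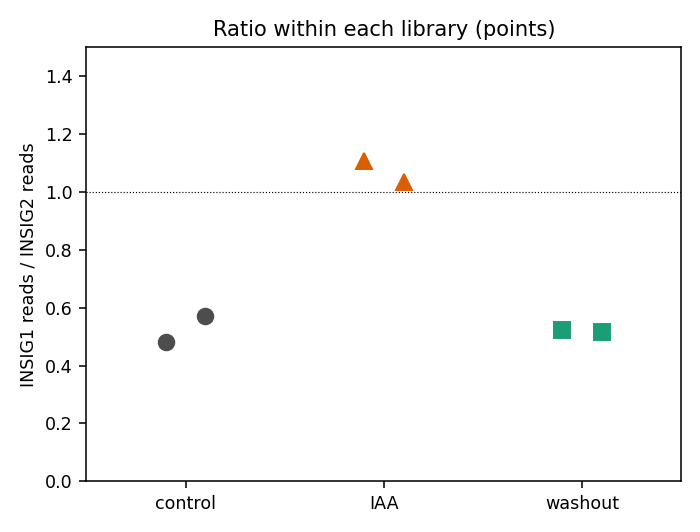
Points give the reads of INSIG1 divided by the reads of INSIG2 (y axis, no unit) in each library of the 3 groups, with a dotted line at 1. The IAA libraries lie at 1.11 and 1.03 and the other 4 between 0.482 and 0.572.

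The other 3 regulators were not called by either fit in any comparison. SREBF1, the gene of the SREBP that favours fatty acid genes, measured 3.45 and 3.39 FPKM in control, 3.19 and 3.36 with IAA, then 3.60 and 3.50 after washout, an order with no overlap but a log2 change with IAA of only -0.05 ± 0.04 (limma adjusted p = 0.44). SREBF2, the gene of the SREBP that favours cholesterol genes, measured 1.94 and 1.90, then 1.82 and 1.98, then 1.79 and 1.73 FPKM, with control and IAA overlapping. STARD4, a carrier of cholesterol in the cytosol, measured 1.42 and 1.39, then 1.30 and 1.23, then 1.38 and 1.06 FPKM, and washout replicate 2 was the lowest of the 6. Its log2 change with IAA was -0.09 ± 0.08.

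Of the 7 mevalonate pathway genes, from the joining of acetyl units to farnesyl diphosphate, IDI1 and MVD rose with IAA and fell after washout. IDI1, isopentenyl diphosphate isomerase, measured 5.76 and 5.73 FPKM in control, 7.79 and 8.72 with IAA, then 5.17 and 5.09 after washout. The 3 groups did not overlap, and the washout libraries were the lowest. IDI1 rose to 1.44 times its control mean with IAA (log2 change 0.45 ± 0.06, limma adjusted p = 0.016) and fell to 0.621 of the IAA mean after washout (log2 change -0.59 ± 0.06, limma adjusted p = 0.010). The limma call with IAA was lost without either control or either IAA library (adjusted p up to 0.091), and the call after washout without IAA replicate 2 or either washout library (up to 0.067), while the recovered reads kept both in all 6 such fits. Of the exon bases of IDI1, 14.8% are shared with IDI2-AS1 on the other strand, and the sources used here do not name the strand that was counted.

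MVD, mevalonate diphosphate decarboxylase, the enzyme just before IDI1, measured 3.31 and 3.54 FPKM in control, 4.30 and 4.39 with IAA, then 3.65 and 3.56 after washout. The IAA libraries were well above the rest, and washout sat just above control without overlap. MVD rose by 0.27 ± 0.04 on the log2 scale with IAA (limma adjusted p = 0.023) and fell by 0.22 ± 0.04 after washout (limma adjusted p = 0.035). Leaving out any 1 library ended both limma calls (adjusted p of 0.054 to 0.11 and of 0.058 to 0.14). On the recovered reads the rise was kept in all 6 such fits and the fall in 4, being lost without IAA replicate 2 or washout replicate 2 (voom adjusted p up to 0.073). MVD shares no exon bases with another gene.

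The neighbours of these enzymes in the chain did not all follow. HMGCS1, which makes HMG-CoA, measured 3.36 and 3.18 FPKM in control, 3.56 and 3.59 with IAA, then 3.08 and 3.22 after washout. Its IAA libraries were the highest. The log2 change with IAA was 0.10 ± 0.04 (limma adjusted p = 0.17), and from IAA to washout it was -0.14 ± 0.04 by limma (adjusted p = 0.079) and a fall of 0.18 ± 0.06 on the reads (voom adjusted p = 0.032, lost without any of the 4 IAA and washout libraries, up to 0.19). AC114947.2 shares 15.0% of its exon bases. FDPS, farnesyl diphosphate synthase, the step after IDI1, measured 3.62 and 3.74 FPKM in control, 3.41 and 3.34 with IAA, then 4.51 and 3.91 after washout. It was lowest with IAA, against the direction of IDI1 and MVD, and highest after washout. Its log2 change from IAA to washout was 0.25 ± 0.06 by limma (adjusted p = 0.066), and it rose by 0.32 ± 0.08 on the reads (voom adjusted p = 0.0047, and 0.14 without washout replicate 1). RUSC1-AS1 shares 18.6% of its exon bases.

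The 3 remaining mevalonate genes were not called by either fit. PMVK, phosphomevalonate kinase, between MVK and MVD, measured 1.95 and 1.99 FPKM in control, 1.85 and 1.62 with IAA, then 2.07 and 2.00 after washout, lowest with IAA. MVK, mevalonate kinase, had 283 and 271 recovered reads in control, 303 and 330 with IAA, then 285 and 302 after washout. Its log2 change with IAA was 0.20 ± 0.12 on the reads (voom adjusted p = 0.26). ACAT2, which joins acetyl-CoA units, measured 3.10 and 3.00, then 3.35 and 2.99, then 3.23 and 3.11 FPKM, with control and IAA overlapping, and 52.3% of its exon bases are shared with neighbours that include TCP1.

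**Figure D4:**
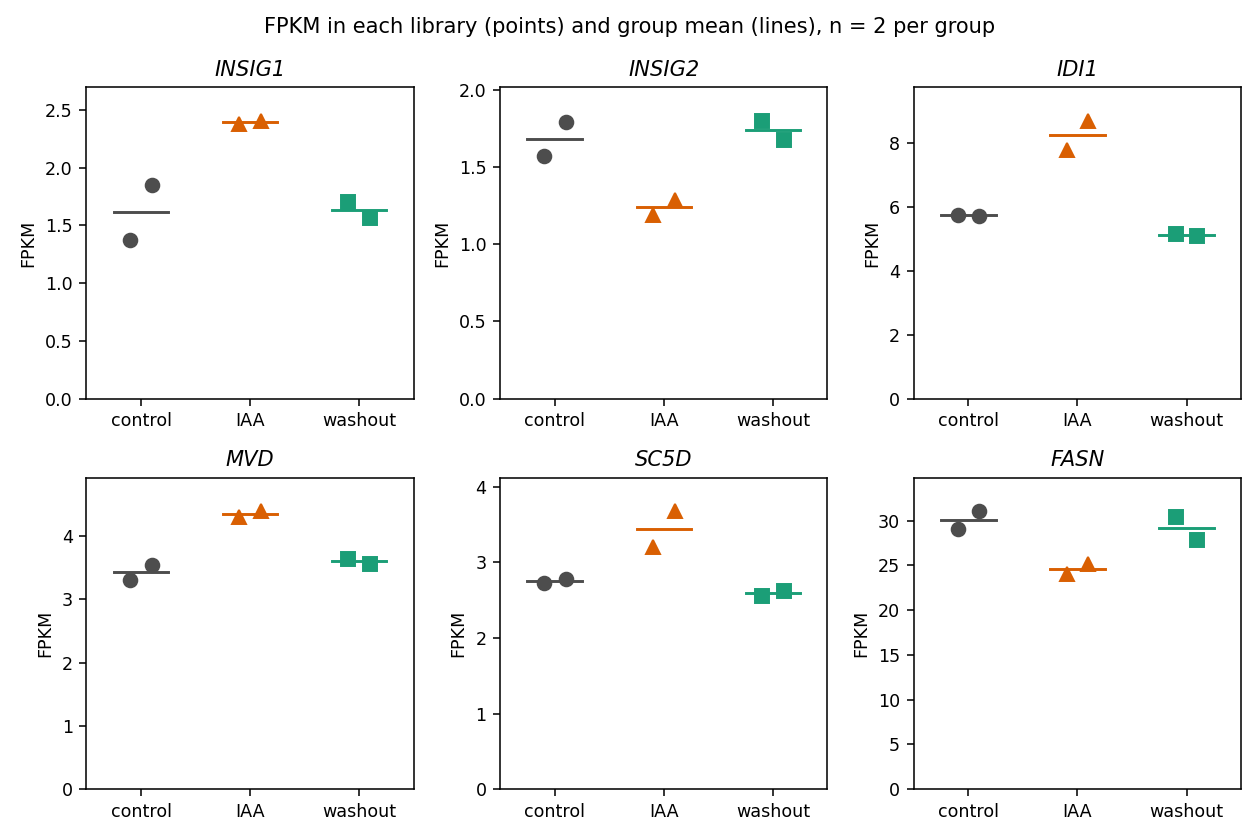
FPKM from 0 (y axis) is drawn for 6 genes by group, with a point for each library and a line at the mean of n = 2. INSIG1, IDI1, MVD and SC5D are highest in both IAA libraries, and INSIG2 and FASN are lowest there.

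Sterol ring formation and modification is covered by 11 genes, of which 8 were tested. SC5D, lathosterol oxidase, which adds a double bond late in the pathway, measured 2.72 and 2.78 FPKM in control, 3.21 and 3.67 with IAA, then 2.56 and 2.62 after washout. The 3 groups did not overlap, with IAA the highest and washout the lowest. Its log2 change with IAA was 0.24 ± 0.06 (limma adjusted p = 0.063), and it rose by 0.32 ± 0.08 on the reads (voom adjusted p = 0.0033, and 0.12 without IAA replicate 2). After washout SC5D fell by 0.30 ± 0.06 on the log2 scale (limma adjusted p = 0.037). That limma call was lost without any 1 of the 6 libraries (0.059 to 0.14), and the reads kept it in all 6 such fits.

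TM7SF2, a sterol reductase, measured 8.87 and 9.59 FPKM in control, 10.2 and 11.9 with IAA, then 10.1 and 8.52 after washout. Its IAA libraries were the highest, though IAA replicate 1 was close to washout replicate 1. The limma log2 changes of 0.23 ± 0.11 with IAA and -0.23 ± 0.11 after washout did not pass (adjusted p = 0.21 in each). On the reads it rose by 0.26 ± 0.09 (voom adjusted p = 0.033) and fell by 0.25 ± 0.09 (0.038). Both read-based calls depended on single libraries: the rise was lost without either control library or IAA replicate 2 (up to 0.38), and the fall without IAA replicate 2 or washout replicate 2 (up to 0.43).

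MSMO1, which removes methyl groups from the ring, measured 2.63 and 2.78 FPKM in control, 3.03 and 3.15 with IAA, then 2.87 and 2.53 after washout. Its IAA libraries were the highest, with a log2 change of 0.14 ± 0.06 (limma adjusted p = 0.16). EBP, which shifts a ring double bond, measured 6.64 and 6.12, then 7.51 and 6.71, then 6.47 and 6.52 FPKM, and its log2 change with IAA was 0.14 ± 0.07 (limma adjusted p = 0.23). FDFT1, squalene synthase, measured 2.29 and 2.34, then 2.54 and 2.46, then 2.33 and 2.25 FPKM, again with IAA highest and a log2 change of 0.08 ± 0.03 (limma adjusted p = 0.19). None of these 3 passed either fit.

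The enzyme after FDFT1 had its lowest values with IAA. SQLE, squalene epoxidase, measured 1.09 and 1.17 FPKM in control, 1.0 and 1.01 with IAA, then 1.09 and 1.15 after washout (log2 change with IAA -0.09 ± 0.04, limma adjusted p = 0.20). DHCR7, the last reductase of 1 branch of the pathway, measured 2.37 and 2.36, then 2.18 and 2.13, then 2.25 and 2.28 FPKM (log2 change with IAA -0.09 ± 0.03, limma adjusted p = 0.12). LSS, which closes squalene epoxide into lanosterol, measured 1.19 and 1.27, then 1.25 and 1.22, then 1.29 and 1.20 FPKM. Its groups overlapped in all 3 comparisons, and the 95% interval of its log2 change with IAA ran from -0.10 to 0.11.

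The 3 sterol genes below the filter were not called on the reads. NSDHL, a sterol dehydrogenase, had 516 to 610 reads per library, with overlapping groups in every comparison. HSD17B7, a ketosteroid reductase, had 83 to 101 reads, again overlapping. CYP51A1, lanosterol demethylase, had 42 to 71 reads, the fewest of the 29 genes, and 83.2% of its exon bases are shared with other genes. Its voom 95% interval with IAA ran from -0.71 to 0.46.

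Fatty acid synthesis and desaturation is covered by 6 genes, with the most abundant of the 29 among them. FASN, fatty acid synthase, measured 29.1 and 31.0 FPKM in control, 24.0 and 25.1 with IAA, then 30.4 and 27.8 after washout. Both IAA libraries were below the other 4, and control and washout overlapped. The mean with IAA was 0.817 of control. The log2 change was -0.28 ± 0.06 with IAA (limma adjusted p = 0.055) and 0.24 ± 0.06 after washout (limma adjusted p = 0.076), both short of the threshold. On the recovered reads, 7885 to 10404 per library, FASN fell by 0.29 ± 0.04 (voom adjusted p = 2.2e-06) and rose by 0.25 ± 0.04 (voom adjusted p = 3.2e-05), and both calls were kept without any 1 library. FASN held 26.2% and 27.3% of the reads of the 29 genes in control, 22.3% and 22.8% with IAA, then 26.9% and 25.6% after washout.

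SCD, stearoyl-CoA desaturase, measured 14.7 and 15.0 FPKM in control, 13.5 and 14.2 with IAA, then 14.7 and 14.6 after washout. Its IAA libraries were the lowest, with a log2 change of -0.09 ± 0.04 (limma adjusted p = 0.21). ACACA, acetyl-CoA carboxylase, which supplies FASN with malonyl-CoA, had 2789 and 2667 control reads, 2532 and 2498 reads with IAA, then 2628 and 2692 after washout (voom log2 change with IAA -0.11 ± 0.05, adjusted p = 0.11). ELOVL6, which lengthens the product of FASN, had 1061 to 1160 reads per library, and its voom 95% interval with IAA ran from -0.11 to 0.17.

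The desaturases of polyunsaturated fatty acids differed in level and in what passed. FADS2 had 170 and 167 control reads, 205 and 247 reads with IAA, then 217 and 174 after washout. Its IAA libraries were above both control libraries and overlapped with washout. It rose by 0.42 ± 0.16 on the reads with IAA (voom adjusted p = 0.046), a call lost without either control library or IAA replicate 2 (up to 0.31). FADS1, which lies in the opposite direction and overlaps FADS2, measured 1.98 and 2.00, then 2.18 and 2.13, then 2.19 and 1.98 FPKM and was not called (limma adjusted p = 0.30 with IAA).

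**Figure D5:**
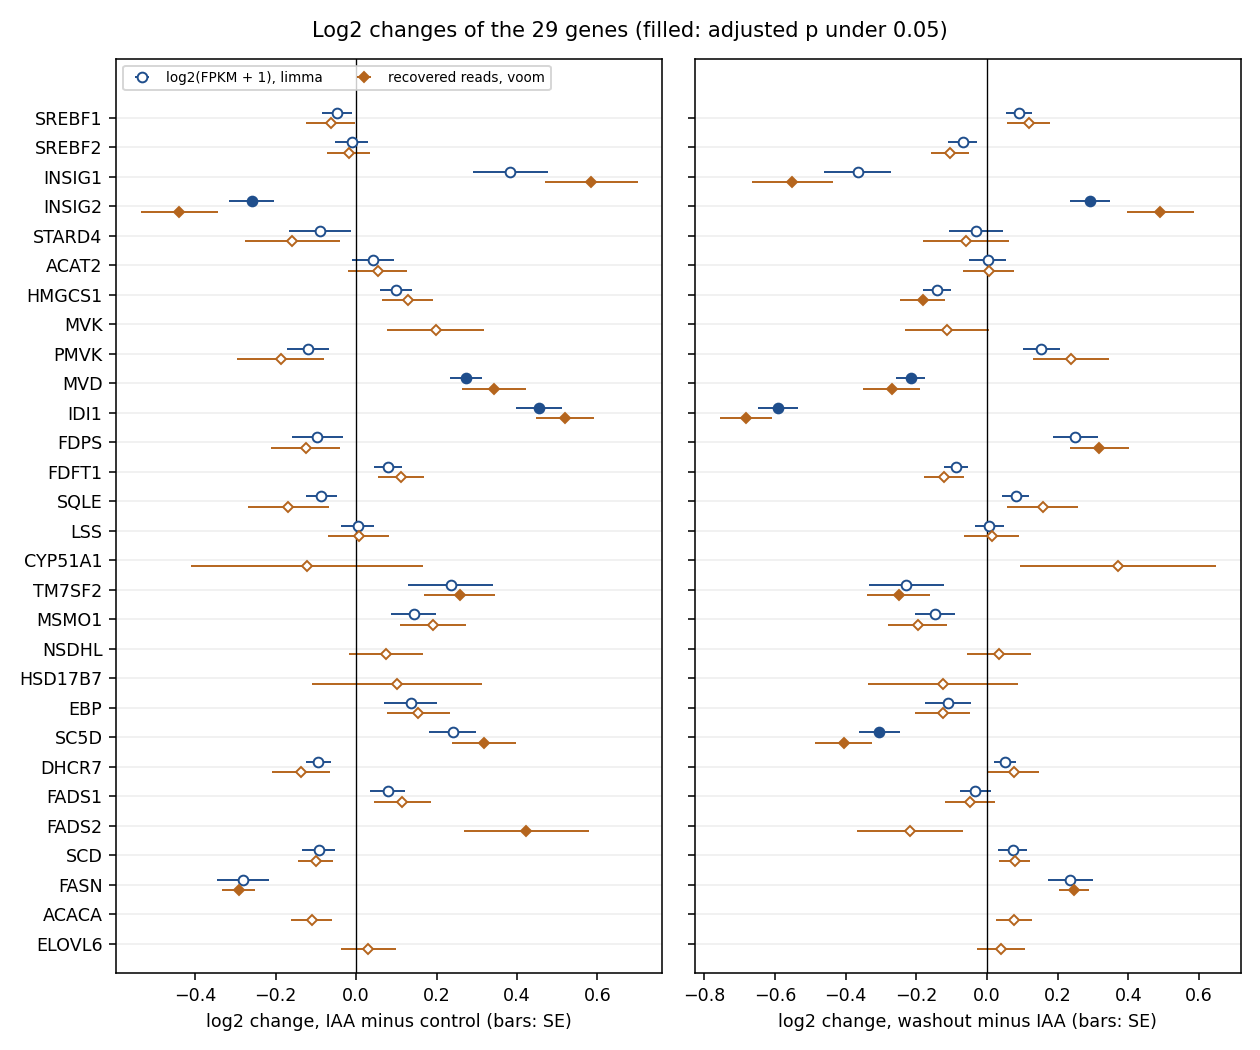
Log2 changes (x axes) with SE bars are drawn for IAA against control (left) and washout against IAA (right), as circles for limma on log2(FPKM + 1) in the 22 tested genes and diamonds for voom on recovered reads in all 29, filled where the adjusted p is under 0.05. Filled symbols lie to the right with IAA for INSIG1, MVD, IDI1, TM7SF2, SC5D and FADS2 and to the left for INSIG2 and FASN.

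Levels can be compared between genes only per length of RNA, here as exon RPKM, the recovered reads divided by the merged GENCODE exon length in kilobases and by the library total. On this scale the control level was highest for FASN (64.2 ± 2.9) and SCD (49.1 ± 0.70), followed by EBP (20.0 ± 1.2) and FDFT1 (19.4 ± 0.30), which did not differ beyond their spread. Levels of the sterol and mevalonate enzymes named above were 12.3 ± 0.68 for TM7SF2, 12.2 ± 0.040 for IDI1, 8.15 ± 0.40 for MVD and 8.04 ± 0.12 for SC5D. The mean of IDI1 lay within the spread of TM7SF2, and MVD and SC5D lay within each other's spread. With IAA the level of IDI1 was 17.6 and that of SC5D 10.0. INSIG2 (9.59 ± 0.87) was above INSIG1 (5.50 ± 1.2) in control, and with IAA the means were 7.06 and 8.17. The lowest levels were those of HSD17B7 (1.15 ± 0.13), FADS2 (0.916 ± 0.017) and CYP51A1 (0.895 ± 0.041). The SD covers only the spread between libraries. Of the exon bases of CYP51A1, 83.2% are shared with other genes, and the merged length takes in all annotated exons (11026 bases for FADS2). How far this moves the levels was not tested. Together the 29 genes took 0.215% to 0.227% of the library totals, and the IAA libraries (0.215% and 0.221%) lay below or within the range of the other 4.

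Set by what the windows held, the 16 genes with an NF-Y box had log2 changes with IAA on the recovered reads of -0.16 to 0.58, with a median of 0.14 and 12 above 0. The 9 genes with a window and no NF-Y box ranged from -0.44 to 0.42, with a median of -0.11 and 3 above 0. The ranges overlapped widely, the split was made after the values were seen, and the difference was not tested. Over all 14752 genes of that fit, not split by the box, 8438 were above 0 and the median was 0.04. The 3 genes with sterol regulatory element letters had log2 changes with IAA on the reads of 0.58 (INSIG1), -0.02 (SREBF2) and -0.10 (SCD).

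Other genes of sterol and lipid metabolism, in 4 lists with 60 genes, were read from the same fits. Of 34 tested, 4 rose and 2 fell with IAA, beside the 13.1% of all genes called, and 1 rose and 5 fell after washout, beside 14.4%. On the recovered reads, with 56 tested, 12 rose and 5 fell with IAA, beside 23.8% of all genes called, and 7 rose and 11 fell after washout, beside 24.9%. Among those below the FPKM filter, NPC1, which moves cholesterol out of lysosomes and is named here after its values were seen, had 879 and 821 reads in control, 1191 and 1254 with IAA, then 957 and 933 after washout (voom adjusted p = 7.9e-07 for the rise and 1.0e-04 for the fall). TMEM97, of the same list and not called by limma, went the other way on the reads. It fell with IAA (voom adjusted p = 0.0026) and rose after washout (voom adjusted p = 0.0019). Against control 0 of the list genes were called after washout by limma (0 with an unadjusted p under 0.05) or by voom on the reads (2 with an unadjusted p under 0.05). Their median log2 change with IAA was 0.04, beside 0.01 over all tested genes.

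Among the 9 tested genes of SREBP processing and sterol sensing (12 listed), MYLIP had the largest change. This ubiquitin ligase measured 1.32 and 1.40 FPKM in control, 2.78 and 2.59 with IAA, then 1.41 and 1.53 after washout. Its IAA mean was 1.97 times control, well clear of the other libraries. MYLIP rose by 0.64 ± 0.05 on the log2 scale (limma adjusted p = 0.0070) and fell by 0.58 ± 0.05 after washout (limma adjusted p = 0.0081). The limma rise was lost without either control library or IAA replicate 1 (adjusted p up to 0.061) and the fall without either IAA library or washout replicate 1 (up to 0.057), while the reads kept both in all 6 such fits. RNF139, a ubiquitin ligase of the endoplasmic reticulum, rose to 1.23 times control (limma adjusted p = 0.016) and fell to 0.849 of the IAA mean after washout (limma adjusted p = 0.025). RNF145, a related ligase, measured 1.70 and 1.60, then 1.36 and 1.39, then 1.82 and 1.67 FPKM, and rose after washout (limma adjusted p = 0.043), with a limma adjusted p of 0.080 with IAA.

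The other genes that limma called belong to the lists of other sterol and isoprenoid synthesis (9 tested) and of other fatty acid synthesis and lipogenesis (12 tested). RDH11, a retinol dehydrogenase, measured 2.95 and 2.79 FPKM in control, 4.12 and 3.57 with IAA, then 2.99 and 2.87 after washout, and rose and then fell (limma adjusted p = 0.041 and 0.046). GGPS1, geranylgeranyl diphosphate synthase, which takes farnesyl diphosphate out of the sterol path, fell after washout to 0.830 of the IAA mean (limma adjusted p = 0.046), with a fold of 1.14 with IAA (limma adjusted p = 0.096). PCYT2, an enzyme of phosphatidylethanolamine synthesis, rose to 1.34 times control and fell after washout (limma adjusted p = 0.022 and 0.033).

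ACSL4, which activates long polyunsaturated fatty acids, measured 1.38 FPKM in both control libraries, 1.08 and 1.11 with IAA, then 1.27 and 1.38 after washout. It fell with IAA (limma adjusted p = 0.043), as did PTPLAD1, a dehydratase of fatty acid elongation (0.865 of control, limma adjusted p = 0.049). When 1 library was left out, the limma calls of RNF139 and PCYT2 with IAA were lost without either control or either IAA library (up to 0.10). All other limma calls of these 7 genes besides MYLIP were lost without any 1 of the 6 (up to 0.18).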

How the data were processed

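The table the authors deposited gives the FPKM of 31628 genes in each library. The tools listed are HISAT, Bowtie2, HTSeq and edgeR, with the genome hg19, per the submitters' processing notes. The sources used here do not say in what role, order or version, with which annotation, or which strand was counted. The table has no coordinates. Places and promoters are from GENCODE 29 and RefSeq on GRCh38, used only for names, lengths and sequences. The control, IAA and washout groups (2 libraries each) were taken from the sample titles.

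The FPKM were found to equal reads divided by the whole gene span and the library total. Reads were solved for 21584 of the 21707 genes above 0 (to within 0.02 reads): 16966 with the GENCODE 29 span, 4281 at the nearest and 337 at the smallest whole length, and 123 had no solution. Of the IDs, 649 were matched by symbol only, ACACA among them. Recovered reads summed to 104.69% to 105.07% of the totals, and why was not tested. Between 18474 and 18853 genes were above 0 per library.

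Tests were made on log2(FPKM + 1), with a pseudocount of 1 and a minimum mean FPKM of 1, in limma 3.58.1 (R 4.3.3), with group means, a prior variance that follows the mean, 3 residual and 1.81 prior degrees of freedom, with Benjamini-Hochberg adjustment over all tested genes and a threshold of 0.05. The fit was tested on simulated data, where most of the smallest changes were missed and the share of false calls was above the threshold. With 2 libraries a group, a gene that was not called may still have changed. Alternatives were other pseudocounts and filters, TPM scaling, voom on the recovered reads, only the 2 groups compared, a replicate block and leaving out each library. All 29 genes are named. In the 4 other lists, a gene is named if called by limma in at least 1 of the 3 comparisons, at most 4 per list and comparison by size of change. NPC1 and TMEM97 are named outside this rule, and other list genes called only on the reads are not named. One gene of these lists is not reported here and is left out of their counts. The genes and lists were chosen with earlier results of these data known.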

Additional observations from a re-analysis of the deposited data

How the results depend on the processing

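The count of all genes called with IAA (1092) was 501 at a mean FPKM of at least 5, 3512 with voom on the recovered reads, 536 in a fit of only the 2 groups compared and 50 to 534 without 1 library. The count after washout against IAA (1196) was 548, 3674 and 413 under the same settings and 46 to 421 without 1 library. Washout against control gave 0, but 48 with no filter, 27 at a mean FPKM of at least 0.1 with pseudocount 0.1, and 94 with voom. Of the sterol and fatty acid genes, the 3 called with IAA became 8 with voom, 1 in the fit of only the 2 groups and 0 to 1 without 1 library. The 4 called after washout became 1 with no filter, 1 at a mean FPKM of at least 5, 2 at 0.1 with pseudocount 0.1, 9 with voom, 2 in the fit of only the 2 groups and 0 to 2 without 1 library. With a replicate block, 486 and 532 of all genes and 1 and 1 of the sterol and fatty acid genes were called with IAA and after washout, and 0 against control. The replicate numbers are not said to mark a shared batch, and replicate differences correlated between groups at 0.043, -0.027 and 0.006, so the block was not taken as a pairing. The cause of these shifts was not tested. A filter at 5 removes INSIG1, INSIG2, MVD and SC5D from the test. The calls rest on 2 libraries a group, and limma calls of single genes were lost in many of the fits without 1 library, as given beside each gene.

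Named changes that passed a test kept their sign under all these settings, apart from those not followed through them. Not followed were the changes of NPC1, TMEM97 and the colon epithelium markers. Signs turned in 38 cases, all of changes not called and all but 2 from leaving out 1 library, for which the lowest and highest log2 changes follow. With IAA they were -0.050 to 0.027 for SREBF2, -0.021 to 0.10 for ACAT2, -0.020 to 0.028 for LSS (-0.024 with TPM scaling) and, on the reads, -0.35 to 0.11 for CYP51A1, -0.034 to 0.18 for NSDHL and -0.015 to 0.22 for HSD17B7. From IAA to washout they were -0.14 to 0.075 for STARD4, -0.061 to 0.064 for ACAT2, -0.023 to 0.036 for LSS, -0.083 to 0.016 for FADS1 and, on the reads, -0.013 to 0.082 for NSDHL and -0.010 to 0.089 for ELOVL6. Against control they were -0.12 to 0.15 for INSIG1, -0.027 to 0.089 for INSIG2, -0.025 to 0.0092 for FDFT1, -0.031 to 0.018 for SQLE, -0.019 to 0.039 for LSS, -0.10 to 0.12 for TM7SF2, -0.069 to 0.063 for MSMO1 (0.0021 with TPM scaling), -0.027 to 0.076 for EBP, -0.0046 to 0.094 for FADS1, -0.11 to 0.018 for FASN, -0.0071 to 0.052 for RDH11 and, on the reads, -0.14 to 0.095 for HSD17B7 and -0.074 to 0.0027 for ACACA.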
